A study of Homo sapiens with 4 samples.

Results

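The ErbB receptor genes and the genes of EGF family ligands were examined on the human arrays of a study of PAK1 in breast epithelial cells. The set was fixed by name and held 4 receptors (EGFR, ERBB2, ERBB3 and ERBB4) and 6 ligands (AREG, EREG, HBEGF, TGFA, BTC and NRG1). On the array these 10 genes, of 27193 gene names in all, were measured by 19 of 34127 probes and by 37 of 43118 spots other than controls. A filter on dim probes kept those that exceeded background clearly in both samples of either group, and all 10 genes passed it, while 1 of the 19 probes, a second one for ERBB4, did not.

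The arrays compared MCF10A.B2 cells (control) with MCF10A.B2 cells that express a shRNA against PAK1 (PAK1 shRNA), with 2 arrays in each group. MCF10A is a non-tumorigenic human mammary epithelial line, although the labels carry breast cancer as a diagnosis, and the B2 derivative holds a chimeric ErbB2 that the dimerizer AP1510 activates. Cells of both groups had grown with horse serum, were deprived of serum for 3 h and received AP1510 for 15 min before RNA was taken, so no array here shows cells without ErbB2 activation. The methods add EGF, itself a ligand of EGFR, and insulin to the growth medium of both lines. The shRNA is described as tetracycline inducible, and the labels do not say whether the control cells were parental or carried the uninduced hairpin, although the methods call the comparison line wild type. No array with a non-targeting shRNA was analysed here. The labels do not state separate cultures for the 2 samples of a group, and the series description speaks of cells from tumors where the labels name the cell line. The p-values therefore rest on the spread between these samples, which may be technical. The limma test used below draws the spread of a gene toward one shared by all genes tested. Its standard errors can thus differ from those of the gene's own samples. The smallest two-sided p that an exact permutation of 2 and 2 arrays allows for a single gene is 0.333.

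ErbB receptors are tyrosine kinases of the cell surface that signal as pairs. EGFR binds AREG, EREG, HBEGF, TGFA and BTC, ERBB4 shares HBEGF, BTC and EREG with it, and NRG1 is a ligand of ERBB3 and ERBB4. ERBB2 has no known ligand of its own and ERBB3 has little kinase activity, so both act with a partner. The ligands are made as membrane anchored precursors that proteases of the ADAM family release, and in mammary epithelium the receptors and ligands form autocrine loops that govern growth and migration.

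In PAK1 shRNA cells the ligand genes BTC, HBEGF, EREG, TGFA and AREG were higher, by 8.16-fold, 6.17-fold, 4.75-fold, 2.40-fold and 1.44-fold. Among the receptors ERBB3 was 2.48-fold higher, ERBB2 stood at 57.4% and EGFR at 68.2% of the control level, and ERBB4 and NRG1 did not pass the threshold. Of the 10 genes, 6 were higher and 2 were lower by limma, where the p-value adjusted after Benjamini and Hochberg over the 21999 genes tested had to lie under 0.05. The same test called 31% of all genes higher and 31.9% lower, 62.9% in all, which is the background for the count of members. Fewer of all genes changed at least 2-fold, 8.86% higher and 8.97% lower, against 5 of the 10 members higher and 0 lower. The members were chosen with earlier results of these data known, so the counts and medians describe them and do not test the set. Median log2 fold changes were 1.76 for the 6 ligands, -0.30 for the 4 receptors and 0.02 for all genes tested.

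The arrays themselves gave 78.9% to 83.1% of probes well above background and median raw intensities of 501 and 384 in control and 326 and 319 in PAK1 shRNA samples, and the number of arrays limits the precision. Normalized values correlated at r = 0.997 between the control arrays, 0.998 between the PAK1 shRNA arrays and 0.949 to 0.956 between the groups, across probes. PAK1 went from 11.19 and 11.27 to 10.44 and 10.52 on the log2 normalized intensity scale, a log2 fold change of -0.75 (standard error 0.08, limma adjusted p = 0.00018), or 59.5% of the control level. The 7 basal mammary markers reported (KRT5, KRT14, KRT17, TP63, ITGA6, ITGB4 and CDH3) were well above background on all arrays, 4 of them lower and 1 higher in PAK1 shRNA cells, with a summed normalized intensity of 385171 to 430341 in control and 338612 to 349629 in PAK1 shRNA cells. Of 8 luminal markers 6 were measured and 2, PGR and ELF5, were not well above background on any array, 2 others were higher and 2 lower, and the summed level was 160002 to 164816 against 208141 to 230182, a sum made mostly by KRT18 (log2 17.17 and 17.13 against 17.71 and 17.55). The median log2 fold change of the luminal list was 0.015. Of the 4 leukocyte markers reported, PTPRC and CD3E did not pass the test and CD14 and ITGAM were higher, and the summed level was 18775 to 19643 in control and 45500 to 49163 in PAK1 shRNA cells, nearly all of it from CD14 (log2 14.21 and 14.15 against 15.45 and 15.56), with a list median log2 fold change of 0.30. Of 6 fibroblast markers COL1A2 and COL3A1 were not well above background on any array, 3 were higher and 1 lower, and the sum over these 4 was 3956 to 4711 in control and 7804 to 8005 in PAK1 shRNA cells, most of it from DCN. The 4 endothelial markers were well above background on all arrays, with 1 higher and PECAM1 lower, and summed to 1048 to 1087 in control and 851 to 879 in PAK1 shRNA cells. The part of these shifts in the changes below was not tested, and in RNA from whole lysates fewer cells of a kind and less RNA per cell cannot be told apart.

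The ligand genes that rose at least 2-fold and the receptor genes that fell are shown first by the 250 bases before their annotated start, since these genes differed between the groups. The windows come from RefSeq (GRCh38.p14), of which those for 8 of the 10 genes were used. No window was at hand for ERBB3, which rose, and NRG1 was left out. For TGFA and EGFR, each with 2 windows, the outermost is shown. Capitals mark matches on either strand to the letters of 5 motifs, which may overlap one another. The AP-1 motif, bound by Fos and Jun factors, was searched by the looser letters TGANTCA. There N is any base, while the usual site has C or G. The cyclic AMP response element, CRE, was searched as TGACGTCA. For the GC box of SP1 the letters were GGGCGG. The TATA box of core promoters was searched as TATAAA, and the interferon-stimulated response element, ISRE, was the last of the 5.
BTC, chr4:74794524-74794773, minus strand: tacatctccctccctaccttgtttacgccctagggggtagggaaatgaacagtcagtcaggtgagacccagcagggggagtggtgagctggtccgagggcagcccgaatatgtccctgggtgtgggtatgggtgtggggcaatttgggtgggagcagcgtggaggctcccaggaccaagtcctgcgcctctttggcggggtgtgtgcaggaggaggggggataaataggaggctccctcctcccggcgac
HBEGF, chr5:140346604-140346853, minus strand: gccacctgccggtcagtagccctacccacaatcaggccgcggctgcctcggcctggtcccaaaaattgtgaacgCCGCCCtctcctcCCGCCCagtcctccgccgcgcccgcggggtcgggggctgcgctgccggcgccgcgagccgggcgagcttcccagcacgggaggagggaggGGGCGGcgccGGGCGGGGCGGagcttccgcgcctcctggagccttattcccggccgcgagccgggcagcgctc
EREG, chr4:74364895-74365144, plus strand: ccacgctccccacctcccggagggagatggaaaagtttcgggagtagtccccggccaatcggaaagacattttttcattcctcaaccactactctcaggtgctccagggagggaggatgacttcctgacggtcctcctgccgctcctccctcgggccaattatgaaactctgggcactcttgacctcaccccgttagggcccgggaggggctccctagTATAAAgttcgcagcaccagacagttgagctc
TGFA, chr2:70553827-70554076, minus strand: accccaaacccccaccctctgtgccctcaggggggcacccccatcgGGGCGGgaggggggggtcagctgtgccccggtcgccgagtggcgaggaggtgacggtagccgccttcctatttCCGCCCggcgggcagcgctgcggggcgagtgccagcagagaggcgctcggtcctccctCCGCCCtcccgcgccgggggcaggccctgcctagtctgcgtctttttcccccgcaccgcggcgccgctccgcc
EGFR, chr7:55018767-55019016, plus strand: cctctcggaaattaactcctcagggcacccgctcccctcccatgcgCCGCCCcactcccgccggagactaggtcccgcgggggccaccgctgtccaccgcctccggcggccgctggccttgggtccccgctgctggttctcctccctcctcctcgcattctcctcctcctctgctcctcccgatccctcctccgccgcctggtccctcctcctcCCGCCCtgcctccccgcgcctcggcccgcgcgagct
ERBB2, chr17:39687844-39688093, plus strand: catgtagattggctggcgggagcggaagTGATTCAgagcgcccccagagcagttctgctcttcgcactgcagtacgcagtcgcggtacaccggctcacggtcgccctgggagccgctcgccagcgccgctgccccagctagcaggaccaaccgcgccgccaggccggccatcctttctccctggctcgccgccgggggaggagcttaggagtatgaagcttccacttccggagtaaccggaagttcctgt
HBEGF held 5 SP1 matches, TGFA 3 and EGFR 2, a motif found in 42.5% of 34943 windows of the same length. EREG held 1 TATA match, which ended 27 bases before the start and which 10.8% of windows hold. ERBB2 held 1 match to the looser AP-1 letters, TGATTCA, with T in the middle and so not the usual site. A match to the looser letters was found in 6.59% of windows. BTC held none of the 5 motifs, and none of the 6 windows held an ISRE, found in 3.02% of windows, or a CRE, found in 1.63%. The GC content was 76.4% for HBEGF, 75.6% for TGFA, 73.6% for EGFR, 65.6% for ERBB2, 62.0% for BTC and 58.0% for EREG, beside a median of 58.0% over all windows. The window at the inner EGFR start, not shown, held 2 AP-1 and 2 TATA matches, that of AREG, also not shown, held 1 CRE, 1 TATA and 1 SP1 match, that of ERBB4 held 1 SP1 match, and the inner TGFA window held none. A match describes letters only and is no evidence of a site in use.

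BTC encodes betacellulin, a ligand of EGFR and ERBB4. Its only probe (chr4:75675838-75675897, hg19, minus strand) read 616 and 460 raw intensity units in control and 2805 and 3518 in PAK1 shRNA cells. After normalization its log2 intensity was 8.87 and 8.83 in control and 11.71 and 12.05 in PAK1 shRNA cells. The groups were far apart and the control arrays almost equal. This is a log2 fold change of 3.03 (standard error 0.12, limma adjusted p = 3.4e-06), with a 95% interval of 6.69-fold to 9.95-fold, and 1.06% of all genes tested had a larger rise.

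HBEGF, the heparin-binding EGF-like growth factor, is a ligand of EGFR and ERBB4 whose precursor also acts at cell contacts. Its only probe (chr5:139713052-139713111, hg19, minus strand) read 1083 and 1001 raw units in control and 4019 and 5242.5 in PAK1 shRNA cells. The log2 normalized intensity was 9.68 and 9.92 in control and 12.24 and 12.61 in PAK1 shRNA cells. Both PAK1 shRNA arrays lay well above both control arrays before and after normalization. HBEGF thus had a log2 fold change of 2.63 (standard error 0.14, limma adjusted p = 1.2e-05, 95% interval 4.86-fold to 7.83-fold), and 1.53% of genes rose more.

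EREG encodes epiregulin, a ligand of EGFR and ERBB4 with low affinity and long-lasting signals. On its probe (chr4:75254009-75254068, hg19, plus strand) the raw intensity was 580 and 640 in control and 1838 and 2378 in PAK1 shRNA cells. The log2 normalized intensity was 8.81 and 9.30 in control and 11.12 and 11.49 in PAK1 shRNA cells. The SD between samples was 0.35 in control, the widest of the 10 genes in that group, and 0.26 in PAK1 shRNA cells, and the groups did not overlap. For EREG the log2 fold change was 2.25 (standard error 0.19, limma adjusted p = 7.1e-05, 95% interval 3.48-fold to 6.48-fold), and 2.12% of genes rose more.

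TGFA and AREG were each read by a pair of probes, 1 of which for each gene lies in coding sequence, in the membrane-spanning part of the TGFA precursor and at the end of the AREG precursor. These probes are shown with a coding EGFR probe, because they show which part of the message was read. They are written 5′ to 3′ with no capitals.
TGFA, chr2:70683472-70683531 (hg19), minus strand: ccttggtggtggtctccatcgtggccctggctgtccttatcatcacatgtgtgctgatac
AREG, chr4:75318293-75318352 (hg19), plus strand: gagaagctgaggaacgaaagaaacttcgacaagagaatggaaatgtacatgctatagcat
EGFR, chr7:55231446-55231505 (hg19), plus strand: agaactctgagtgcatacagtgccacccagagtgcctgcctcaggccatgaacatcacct
No stretch of 20 bases of any of the 19 probes occurred in a probe of another gene on the array.

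TGFA encodes transforming growth factor alpha, a classical autocrine ligand of EGFR. The coding probe, the brighter of the pair, had a log2 normalized intensity of 10.52 and 10.79 in control and 11.88 and 11.96 in PAK1 shRNA cells, a log2 fold change of 1.26 (standard error 0.11, limma adjusted p = 7.8e-05). The second probe (chr2:70675319-70675378, hg19) went from 7.74 and 7.91 to 8.87 and 8.87, and its log2 fold change was 1.05 (standard error 0.08, limma adjusted p = 4.1e-05 with each probe apart). Both probes placed the PAK1 shRNA arrays above the control arrays. The 95% interval of the first was 2.01-fold to 2.87-fold, and 6.40% of genes rose more.

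AREG encodes amphiregulin, an EGFR ligand of the mammary gland. Older annotation holds a near-identical copy, AREGB, a name that RefSeq now gives as a synonym of AREG, so reads of the gene and such a copy cannot be told apart. Its brighter probe (chr4:75320518-75320577, hg19, plus strand) read 56878 and 53010 raw units in control and 65947 and 54693 in PAK1 shRNA cells, none of them saturated. Before normalization the groups overlapped. After it the log2 intensity was 15.47 and 15.64 in control and 16.22 and 15.94 in PAK1 shRNA cells, and the groups did not overlap. On this scale the log2 fold change was 0.53 (standard error 0.12, limma adjusted p = 0.0068) and that of the coding probe shown above was 0.56 (standard error 0.10, limma adjusted p = 0.0024 with each probe apart). A larger rise was found in 18.5% of genes, and AREG no longer passed under the unpaired t-test of the methods' statistics section (p = 0.085, or 0.14 when adjusted over all genes; an exact permutation cannot go below 0.333).

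NRG1 encodes neuregulin 1, the ligand of ERBB3 and ERBB4 in the set. On the brighter of its pair of probes the raw intensity was 565 and 461 in control and 424 and 399 in PAK1 shRNA cells. Before normalization the PAK1 shRNA arrays were thus lower. After it the log2 intensity was 8.77 and 8.85 in control and 8.99 and 8.95 in PAK1 shRNA cells. On this scale the groups did not overlap. That held for 9 of the 10 members, 7 higher and 2 lower. It held for 81.8% of all genes tested, 42.1% higher and 39.7% lower. The log2 fold change of 0.17 (standard error 0.07, limma adjusted p = 0.097, 95% interval -0.01 to 0.35) did not pass the threshold, and the second probe gave 0.13. Its interval held 0 as well as a rise of up to 0.35.

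**Figure D1:**
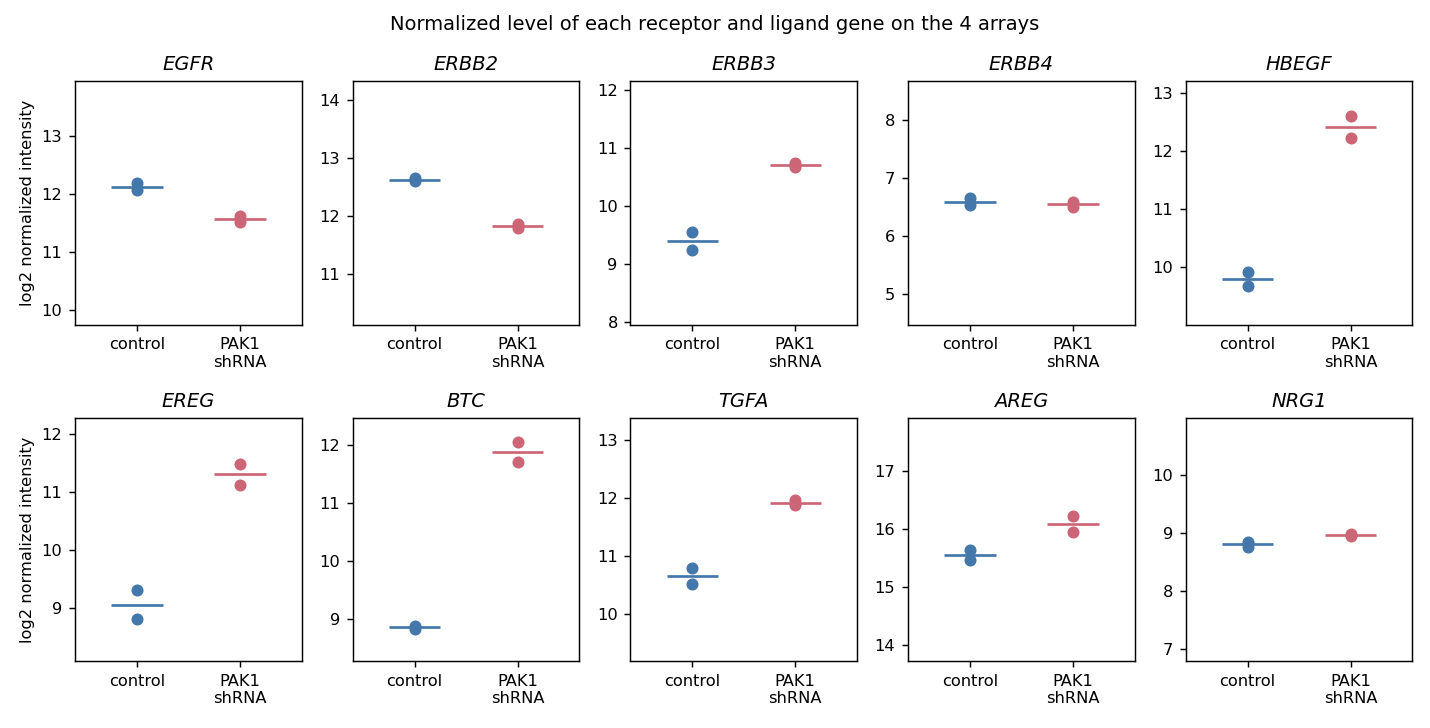
Log2 normalized intensity of each gene on the 2 control arrays (blue) and the 2 PAK1 shRNA arrays (red), where each point is an array and each line a group mean. All panels span the same range on the log2 scale around their own centre, and BTC, HBEGF and EREG show the widest gaps (log2 fold changes of 3.03, 2.63 and 2.25), while the ERBB4 points overlap.

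EGFR, a receptor of the ligands that rose past the threshold, went the other way from them. Its main probe (chr7:55274841-55274900, hg19, plus strand) was printed 10 times on each array, and the mean log2 normalized intensity was 12.18 and 12.06 in control and 11.61 and 11.52 in PAK1 shRNA cells. Single spots lay between 11.90 and 12.39 on the control arrays and between 11.41 and 11.72 on the PAK1 shRNA arrays, so no spot of one group reached those of the other, although spots of an array are technical repeats. EGFR had a log2 fold change of -0.55 (standard error 0.08, limma adjusted p = 0.0011), and 19.95% of genes fell further. The other EGFR probes, tied by the array design to shorter transcript variants, had log2 fold changes of -0.39 (standard error 0.10, limma adjusted p = 0.011) for the one at chr7:55224558-55224617 and -0.65 (standard error 0.09, limma adjusted p = 0.00059) for the coding one shown above. All 3 probes were thus lower.

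ERBB2 is the receptor whose chimeric form was activated in both groups. Its main probe (chr17:37884829-37884888, hg19, plus strand) gave 12.64 and 12.60 in control and 11.85 and 11.79 in PAK1 shRNA cells on the log2 normalized scale. Its 10 spots lay at 12.34 or above on both control arrays and at 12.05 or below on both PAK1 shRNA arrays. For this probe the log2 fold change was -0.80 (standard error 0.07, limma adjusted p = 0.00012), and 12.9% of genes fell further. The second probe (chr17:37851136-37851195, hg19), which the array design ties to a fragment from the 5′ UTR, was dim and overlapped between groups, at 7.22 and 7.43 against 7.26 and 7.19. Its log2 fold change was -0.09 (standard error 0.09, limma adjusted p = 0.42, 95% interval -0.32 to 0.13), so the mean over both probes was -0.45. The sequence of the chimera was not analysed here, and how far each probe reads the endogenous gene or the chimera cannot be told apart.

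ERBB3, the kinase-poor partner of ERBB2, was the receptor that rose. Its brightest probe (chr12:56496160-56496219, hg19, plus strand) went from 9.56 and 9.25 in control to 10.67 and 10.75 in PAK1 shRNA cells on the log2 normalized scale. This gives a log2 fold change of 1.31 (standard error 0.11, limma adjusted p = 8.7e-05, 95% interval 2.05-fold to 3.00-fold), and 6.08% of genes rose more. A probe for a short transcript variant (chr12:56479217-56479276) rose by 1.10 (standard error 0.14, limma adjusted p = 0.00035). The third probe (chr12:56482380-56482439) read 69.8 to 76.6 raw units over a local background of 40.0 to 46.0, and its log2 fold change was 0.04 (95% interval -0.15 to 0.24). With that dim probe included, the mean over the 3 probes was 0.82, still past the threshold (limma adjusted p = 0.00025).

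ERBB4, which binds neuregulins and several EGFR ligands, was near the lower end of what the array could measure. The probe that passed the filter (chr2:212240515-212240574, hg19, minus strand) read 68.8 to 96.9 raw units over a local background of 41.5 to 47.0. The log2 normalized intensity was 6.66 and 6.53 in control and 6.59 and 6.51 in PAK1 shRNA cells, and the groups overlapped. ERBB4 had a log2 fold change of -0.05 (standard error 0.08, limma adjusted p = 0.65, 95% interval -0.25 to 0.15). The second ERBB4 probe was not well above background on any array. Under median centring the value turned to 0.24 and passed (limma adjusted p = 0.039), which made 9 called members.

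**Figure D2:**
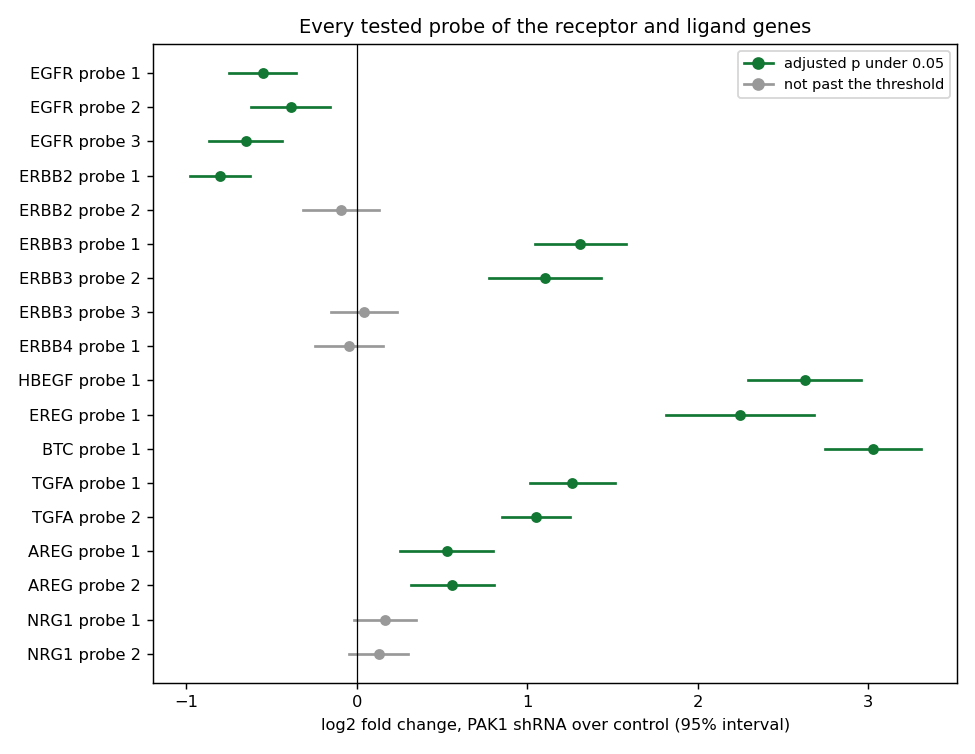
Log2 fold change of PAK1 shRNA over control cells for each of the 18 tested probes, numbered within a gene by brightness on the first control array, with 95% intervals from limma fitted to each probe apart. Green probes passed an adjusted p of 0.05, and the grey ones are the dimmer ERBB2 probe, the dimmest ERBB3 probe, the ERBB4 probe and both NRG1 probes.

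Of the 18 probes tested, 9 were higher and 4 were lower with each probe apart, where 31.2% and 32.7% of all probes were, 63.8% together. No gene had a probe past the threshold in each direction.

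**Figure D3:**
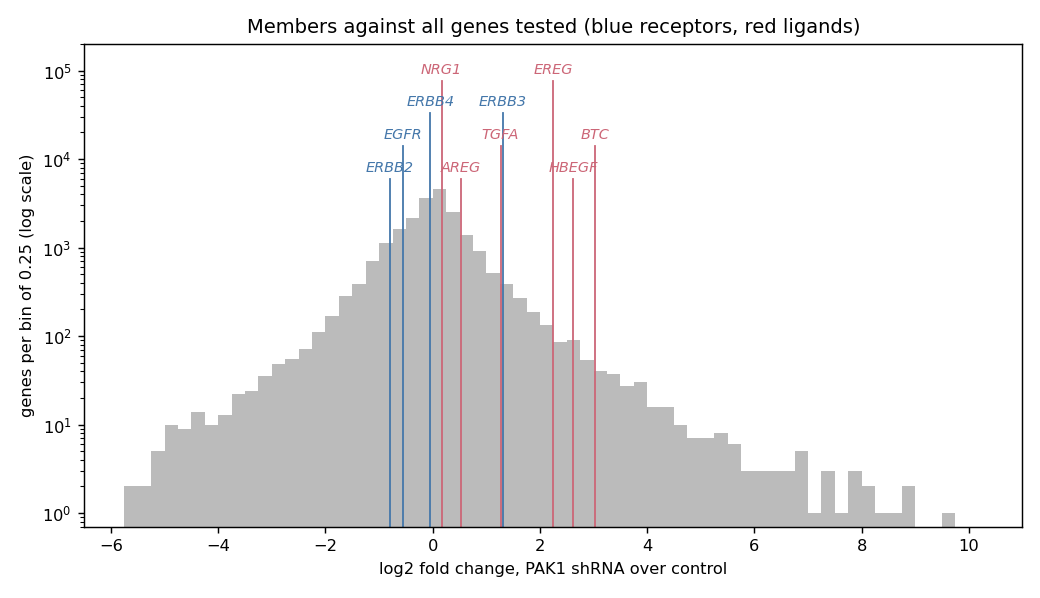
Number of genes by log2 fold change of PAK1 shRNA over control cells for the 21999 genes tested (grey bars, log scale), with a line at the value of each receptor (blue) and ligand (red). BTC at 3.03 is exceeded by 1.06% of genes, whereas ERBB2 at -0.80 is undercut by 12.9%.

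The other genes around the receptors were described by 4 lists, whose counts stand beside the 31% of all genes called higher and the 31.9% called lower. The lists too were chosen with earlier results of these data known, so these counts do not test them. Among the other EGF family ligands 3 of 4 were tested, with 2 higher and 1 lower, where 62.9% of all genes were called, and a median log2 fold change of 0.95. NRG2, a neuregulin, went from 8.53 and 8.43 to 11.70 and 11.97 on the log2 normalized scale, a log2 fold change of 3.36 (standard error 0.11, limma adjusted p = 1.5e-06). Epigen, encoded by EPGN and a ligand of EGFR, rose by 0.95 (standard error 0.08), while NRG4, a ligand of ERBB4, fell by 0.99 (standard error 0.08). NRG3 was not well above background on any array. Neuregulin genes thus went in both directions, beside an NRG1 that did not pass.

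Of 7 genes for the release of ligands, 4 were higher and 1 was lower, against 31% and 31.9% of all genes, with a median log2 fold change of 0.41 beside 0.02 for all genes. ADAM17, the main sheddase of AREG, EREG, HBEGF and TGFA, went from 11.45 and 11.23 to 12.40 and 12.54 (log2 fold change 1.13, standard error 0.10, limma adjusted p = 0.00011). ADAM10, the main sheddase of BTC, went from 11.43 and 11.30 to 12.90 and 12.93 (log2 fold change 1.55, standard error 0.08, limma adjusted p = 9.5e-06). RHBDF2, which carries ADAM17 to the cell surface, rose by 1.89 (standard error 0.10), and ADAM9 rose by 0.41 (standard error 0.08). TIMP3, the tissue inhibitor of ADAM17, went from 13.28 and 13.06 to 11.51 and 11.64, and its log2 fold change was -1.60 (standard error 0.10, limma adjusted p = 2.1e-05). The other 2 genes did not pass, with log2 fold changes of 0.27 for RHBDF1 and 0.15 for ADAM12, and the 5 calls of 7 are close to the 62.9% of all genes called.

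Of 14 adaptors and early effectors of the receptors, 9 were higher, 2 were lower and 3 did not pass, against 31% of all genes higher and 31.9% lower, with a median log2 fold change of 0.50. GRB7, an adaptor that binds ERBB2 and neighbours it on chromosome 17, rose by 1.89 (standard error 0.08, limma adjusted p = 4.9e-06) while ERBB2 itself was lower. SHC1, which links the receptors to Ras, rose by 1.08 (standard error 0.07) and NCK1, an adaptor that also binds PAK1, by 0.96 (standard error 0.08). PLCG1, the phospholipase that docks on EGFR, fell by 1.03 (standard error 0.08, limma adjusted p = 4.5e-05), and GRB2, the central adaptor to SOS1, by 0.26 (standard error 0.07, limma adjusted p = 0.022). GRB2 no longer passed when control replicate 2 (-0.21, limma adjusted p = 0.087) or either PAK1 shRNA replicate was left out.

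Of 14 genes of receptor turnover and restraint, 6 were higher, 5 were lower and 3 did not pass, which lies near the 31% and 31.9% of all genes, and the median log2 fold change was 0.05. LRIG1, a membrane protein that promotes the degradation of ErbB receptors, went from 13.62 and 13.48 to 11.74 and 11.43 (log2 fold change -1.96, standard error 0.12, limma adjusted p = 1.8e-05). ERRFI1, the feedback inhibitor of EGFR and ERBB2 kinases, went from 12.37 and 12.57 to 11.80 and 11.61 (log2 fold change -0.76, standard error 0.10, limma adjusted p = 0.00071, not past the adjusted unpaired t-test), and EPS15, an endocytic adaptor, fell by 0.53 (standard error 0.07). LRIG2, a relative of LRIG1, rose by 0.80 (standard error 0.13, or 0.35 as the mean over its probes, and not past the unpaired t-test), CBLC, a ubiquitin ligase of the CBL family, by 0.76 (standard error 0.09) and STAM, of the endosomal sorting machinery, by 0.67 (standard error 0.07). Calls in this list went both ways.

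**Figure D4:**
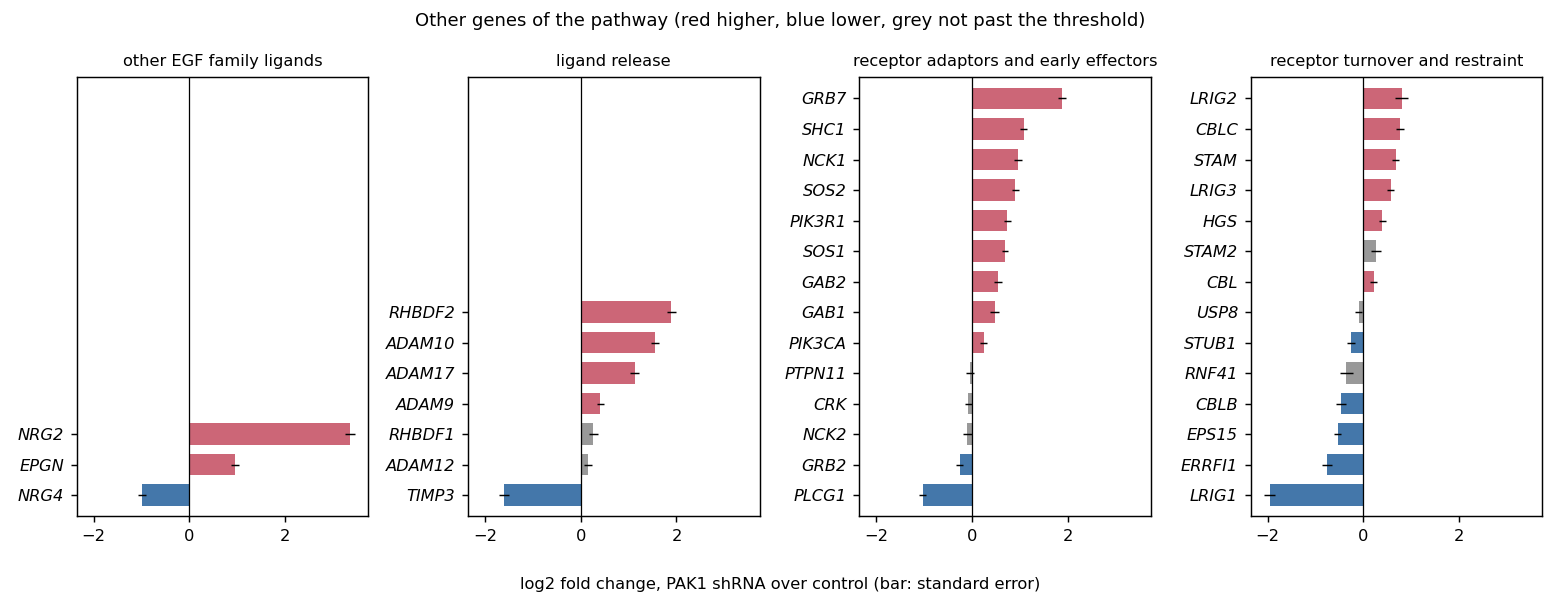
Log2 fold change of PAK1 shRNA over control cells for the tested genes of the 4 lists, 1 bar a gene with its standard error. NRG2 at 3.36 and LRIG1 at -1.96 are the longest bars in each direction, and red, blue and grey mark genes higher, lower and not past the threshold.

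Other processing left the 8 called members on their side of 0. Over the settings that change the values, HBEGF stayed between 2.34 and 2.82, BTC between 2.54 and 3.24, EREG between 1.86 and 2.48 and TGFA between 1.13 and 1.40 on the log2 fold change scale. EGFR stayed between -0.64 and -0.49 and ERBB2 between -0.89 and -0.45, the latter end from the mean over its probes. ERBB3 ranged from 0.82, again the mean over its probes, to 1.46.

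**Figure D5:**
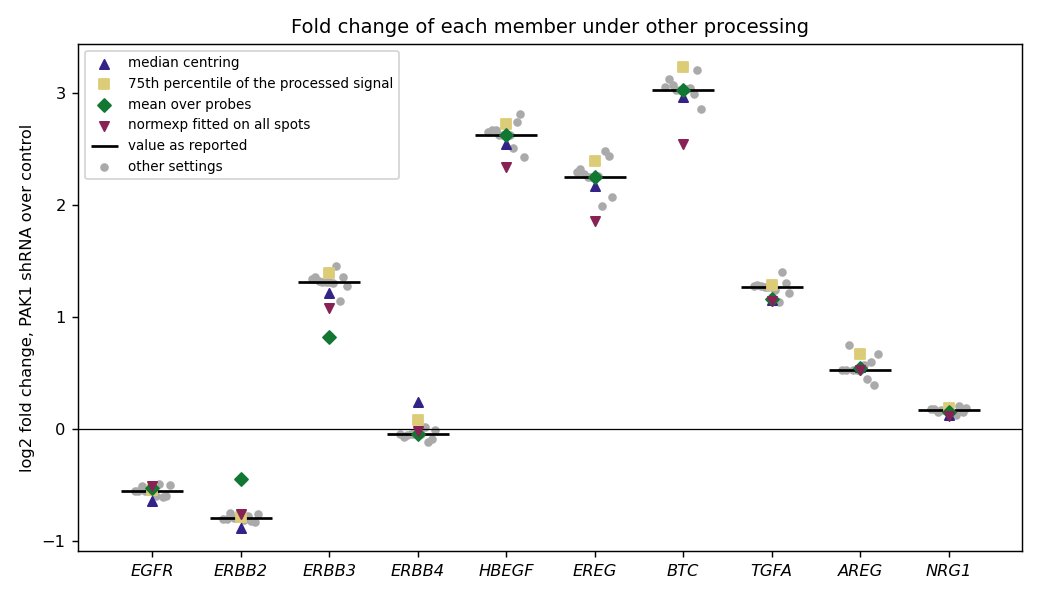
Log2 fold change of each member as reported (black line) and under 15 other settings (points), with 4 settings marked by shape and the others in grey. The ligands BTC, HBEGF and EREG stay at 1.86 or above throughout, and ERBB4 crosses 0.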

How the data were processed

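RNA of the 4 samples was labeled with Cy3 and hybridized in 1 colour to Agilent whole genome arrays on 1 slide. The deposited scanner output of Agilent Feature Extraction (9.5.3.1 in the file headers) gives an intensity per spot, not normalized between arrays. A second table deposited by the authors holds normalized log2 values, which served as an alternative and correlated with those computed here at r = 0.999 or above. Probe coordinates are those in the files (hg19). The members and lists were chosen with earlier results of these data known.

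After the study's methods, background was corrected here by normexp (offset 50), followed by quantile normalization. Spots of flagged local background were kept out of the normexp fit. With them the fitted background mean came to -666 and -740 for control samples and to -10.7 and -10.2 for PAK1 shRNA samples, and without them it ran from -8.99 to -11.7. Feature outliers were dropped, spots of a probe averaged, and the brightest passing probe stood for its gene. Genes were tested with lmFit and eBayes (limma 3.58.1, R 4.3.3), and p-values were adjusted after Benjamini and Hochberg. On simulated data with 200 of 21999 genes changed, the test recovered 100% of the larger and 89% of the smaller changes. It also called 23 unchanged genes. The simulation differs from the arrays, where 62.9% of genes were called, so it does not check that setting. Genes named are the 10 members, PAK1, cell type markers and, per list, up to 3 rises and 3 falls past the threshold. ADAM9 was named after its value was seen. RHBDF1 and ADAM12, which did not pass, and NRG3, which was not tested, are named as well. The lists of basal and leukocyte markers leave out genes that are not reported here. Slide could not serve as a block, as all arrays shared 1.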

Additional observations from a re-analysis of the deposited data

How the results depend on the processing

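Across the alternatives, 202 values of the 10 members stayed on their side of 0 and of the threshold, 5 fell short of it and 3 changed sign, all 3 of ERBB4. ERBB4 was 0.24 under median centring and 0.076 when processed signals were scaled by their 75th percentile, and leaving out single arrays gave -0.11 to 0.018, the upper value without control replicate 1. What turned these signs was not tested. Those scalings put the all-gene median at 0.14 and 0.12, and the share of higher genes among those called at 55.9% and 54.2%, from 49.3%. Asking for 2-fold left 5 members, all higher and 0 lower, and 3923 genes (1949 higher, 1974 lower), so EGFR, ERBB2 and AREG fell short. The unpaired t-test after Benjamini-Hochberg adjustment called 9134 genes, 4370 of them higher, and lost AREG and, among the pathway genes named, LRIG2, ERRFI1 and GRB2. Of the values of those pathway genes 361 kept their call and 17 fell short, most of them under the 2-fold threshold.

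Leaving out each array in turn, with the spread of the remaining lone sample taken from the other group, called 8 members every time, 6 higher and 2 lower, with 11822 to 13039 genes called, 5793 to 6419 higher and 6029 to 6620 lower. AREG lay between 0.39 and 0.67. A replicate block gave 14043 genes and no other call among the members (AREG limma adjusted p = 0.0039). Arrays of one number did not deviate together after normalization (r = 0.0089 over 27515 probes). With a single such pair of differences, this cannot tell whether they were handled together. Low signal over background limits the ERBB4 probes and the dim probes of ERBB2 and ERBB3.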
